A study of Mus musculus with 15 samples.

Results

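The effect of diabetes on gene expression in the aorta of Apoe null mice was examined in 8 of the 15 arrays of the study, 4 from diabetic and 4 from non-diabetic mice. The arrays were chosen by their labels alone. Every difference below is diabetic minus non-diabetic on the log2 scale, so a positive value is a higher level in diabetes.

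Each Affymetrix mouse expression array held RNA from the whole aorta, root to bifurcation, of 1 male mouse aged 9 weeks. All mice of both groups carried the homozygous loss of apolipoprotein E (ApoE-/-), on a C57BL/6 background, and came from a commercial breeder. The diabetic mice (replicates 1 to 4) had been given 5 daily intraperitoneal injections of streptozotocin, at 65 mg/kg, from 6 weeks of age, and the non-diabetic mice (replicates 5 to 8) the citrate buffer without it. The remaining 7 arrays, used for a shared estimate of the spread and for 1 comparison at the end, came from mice that lacked both Apoe and RAGE, the receptor encoded by Ager (4 diabetic, replicates 9 to 12, and 3 non-diabetic, replicates 13 to 15). Streptozotocin acts on the whole animal, so the labels separate no effect of high glucose from one of low insulin or of the compound itself. The preparation holds every cell type of the vessel together with any fat, muscle or nerve left on it, and fewer cells of a type and less RNA per cell cannot be told apart.

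Streptozotocin destroys the insulin-producing beta cells of the pancreas. Insulin normally drives the synthesis of fatty acids from glucose, through the transcription factor SREBP1 and its target genes, and restrains the breakdown of stored fat. In the vessel wall, high glucose is studied for its effects on glycated proteins and their receptor RAGE, on inflammation and on transforming growth factor beta (TGF-beta), a growth factor that promotes matrix deposition and is released from its latent form by thrombospondin-1. Cytosolic heat shock proteins refold damaged proteins, and their genes are switched on by heat shock factor 1, which binds inverted repeats of the sequence GAA. Mouse aorta is wrapped in fat that has many features of brown fat, rich in mitochondria.

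Genes of lipid synthesis and heat shock made up the most clearly changed groups, and the promoters of 4 of them are shown because elements of known regulators can be looked for there. The sequences are the 250 bases before the start site in RefSeq (build GRCm38.p6), 5′ to 3′ on the gene's strand. Capitals mark a pair of inverted heat shock units (GAANNTTC or TTCNNGAA) in the first 3, and each CCAAT or its reverse complement ATTGG, the box bound by NF-Y, in Fasn. The windows are chr5:149636337-149636586 (minus strand) for Hsph1, chr4:40722218-40722467 (plus strand) for Dnaja1, chr17:34959239-34959488 (minus strand) for Hspa1b and chr11:120824548-120824797 (minus strand) for Fasn.
Hsph1: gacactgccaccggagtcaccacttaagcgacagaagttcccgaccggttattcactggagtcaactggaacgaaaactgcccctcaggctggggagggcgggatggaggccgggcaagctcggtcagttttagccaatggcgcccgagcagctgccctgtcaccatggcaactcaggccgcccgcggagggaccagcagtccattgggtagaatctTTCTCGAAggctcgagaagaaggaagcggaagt
Dnaja1: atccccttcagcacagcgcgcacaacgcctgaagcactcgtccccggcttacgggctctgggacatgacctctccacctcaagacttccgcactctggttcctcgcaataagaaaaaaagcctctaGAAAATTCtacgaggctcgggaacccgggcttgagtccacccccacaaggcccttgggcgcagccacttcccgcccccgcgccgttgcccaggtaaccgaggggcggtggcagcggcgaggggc
Hspa1b: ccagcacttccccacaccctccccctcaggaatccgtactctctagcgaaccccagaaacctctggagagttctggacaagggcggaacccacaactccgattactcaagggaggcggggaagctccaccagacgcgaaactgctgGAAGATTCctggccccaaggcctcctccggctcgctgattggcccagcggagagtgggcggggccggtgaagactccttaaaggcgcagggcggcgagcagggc
Fasn: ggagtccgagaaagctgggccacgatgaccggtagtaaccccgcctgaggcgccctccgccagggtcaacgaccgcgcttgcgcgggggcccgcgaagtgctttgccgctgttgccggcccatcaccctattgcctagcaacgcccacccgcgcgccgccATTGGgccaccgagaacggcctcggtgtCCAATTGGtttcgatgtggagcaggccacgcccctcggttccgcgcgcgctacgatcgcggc
The pair of heat shock units started 33 bases before the start site in Hsph1, 124 in Dnaja1 and 104 in Hspa1b. Fasn had 3 matches to CCAAT, from 90 to 59 bases before its start. Counting both strands and the most upstream window of a gene, a heat shock pair was present in 7 of the 21 promoters found for the heat shock list (33.3%), against 12.98% of 27025 promoters of all genes, in 1 of 22 of the endoplasmic reticulum chaperone list (4.55%) and in 1 of 18 of the lipid synthesis list (5.56%). CCAAT was present in 10 of 18 lipid synthesis promoters (55.6%), 19 of 22 endoplasmic reticulum chaperone promoters (86.4%) and 8 of 21 heat shock promoters (38.1%), against 34.5% of all. A match is a description of the letters in these windows.

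The 8 arrays were alike as a whole, with pairwise correlations from 0.981 to 0.997. Diabetic replicate 2 correlated on average more with the non-diabetic arrays (0.9913) than with its own group (0.9897), as did non-diabetic replicates 6 (0.9928 and 0.9921) and 7 (0.9922 and 0.9921) with the diabetic arrays, by smaller margins. Non-diabetic replicate 5 had the lowest mean correlation with its own group (0.988). Smooth muscle markers were present on all arrays. Acta2, smooth muscle actin, lay between 13.19 and 13.45. Markers of white and brown fat were also high, with Adipoq (adiponectin) between 11.42 and 12.28 and Ucp1 (which lets brown fat mitochondria make heat) between 10.48 and 12.18. Apoe read 3.61, 3.51, 3.63 and 3.14 in the diabetic arrays and 3.94, 3.60, 4.04 and 3.71 in the non-diabetic ones, and since every mouse was Apoe null it checks no difference between the groups.

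A gene is said to rise or fall where limma's B statistic, the log odds that it differs, was above 0, which is the threshold in the study's design text. Of 45037 probe sets, 76 passed (0.169%), 47 higher (0.104%) and 29 lower (0.0644%). At a Benjamini-Hochberg adjusted p under 0.05 limma called 0 probe sets, while 4791 (10.6%) had an unadjusted p below 0.05. With 1 probe set per gene, 43 of 18193 genes passed B above 0 (0.236%), 27 of them higher (0.148%) and 16 lower (0.0879%), and their adjusted p-values ran from 0.0515 to 0.263. In 42 of the 43 the 4 diabetic values lay clear of the 4 non-diabetic values, as they did in 1386 of all genes (7.62%). The rises spanned 0.39 to 1.32 and the falls -0.41 to -2.33, and the plot of difference against p shows that the falls reached further. The count of probe sets depended on single arrays. It was 11, 198, 9 and 21 without diabetic replicates 1, 2, 3 and 4, and 7, 71, 62 and 7 without non-diabetic replicates 5, 6, 7 and 8. Without non-diabetic replicate 5 the 7 that passed were all lower in diabetes, and 4 of them were among the 76.

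**Figure D1:**
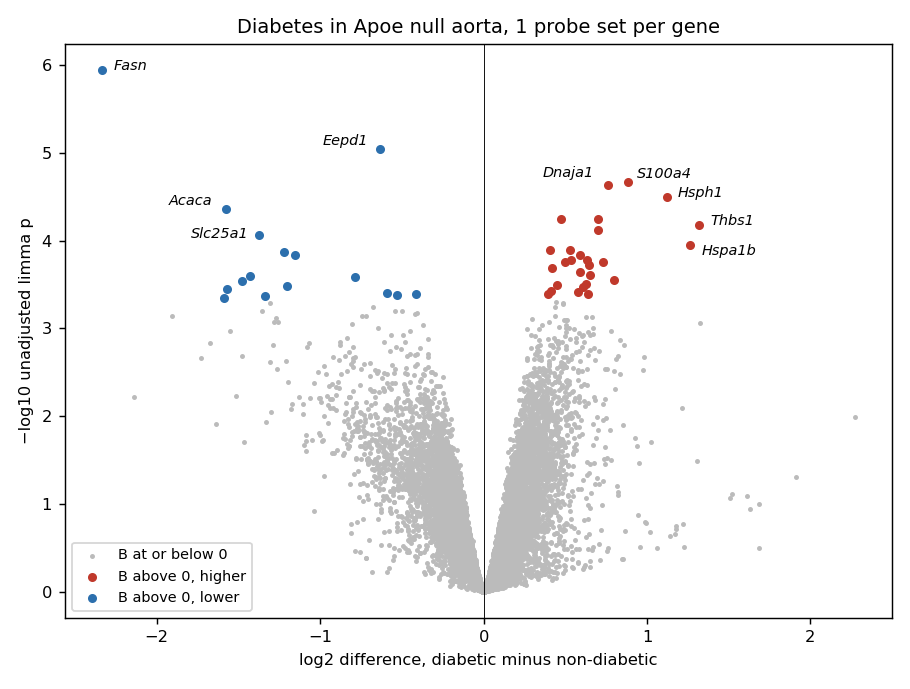
Difference between 4 diabetic and 4 non-diabetic Apoe null aortas (horizontal axis, log2) against the unadjusted limma p (vertical axis, −log10), 1 point per gene over 18193 genes. Red and blue mark the 27 higher and 16 lower genes with B above 0, of which Fasn at -2.33 lies farthest out.

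Genes of fatty acid synthesis fell in the diabetic aorta. Of the 23 measured genes of fatty acid and triglyceride synthesis, 8 fell and 0 rose, against 0.0879% and 0.148% of all genes. A negative difference was found in 20, against 50.2% of all genes. The median of the 23 was -1.07, against -0.00090 over all genes. Fasn, fatty acid synthase, which builds palmitate, read 9.91, 9.99, 9.36 and 9.53 in the diabetic arrays and 12.57, 11.55, 11.93 and 12.09 in the non-diabetic arrays. All 4 diabetic values lay far below all 4 non-diabetic values, with a difference of -2.33 ± 0.29 (SE; limma adjusted p = 0.0515, B = 4.37).

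Acaca, acetyl-CoA carboxylase, which makes the malonyl-CoA that Fasn uses, read 8.00, 8.36, 7.92 and 8.21 in diabetes against 10.32, 9.18, 9.51 and 9.78. Again the groups did not overlap (-1.57 ± 0.27, SE; limma adjusted p = 0.222). Slc25a1, the carrier that exports citrate from mitochondria as the carbon source for this pathway, read 7.88, 7.76, 7.65 and 7.31 against 9.33, 8.82, 8.93 and 9.02 (-1.37 ± 0.26). Me1, malic enzyme, a source of the NADPH that the pathway consumes, read 8.95, 8.89, 8.85 and 8.78 against 10.44, 9.80, 9.98 and 10.06 (-1.20 ± 0.26). In both genes the lowest non-diabetic array lay above the highest diabetic array by a wide gap.

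Acss2 and Aacs, which activate acetate and acetoacetate for lipid synthesis, fell by 1.57 ± 0.34 and 1.22 ± 0.24 (SE), and Thrsp, a lipogenic regulator responsive to thyroid hormone and carbohydrate, fell by 1.16 ± 0.23. Acacb, the second acetyl-CoA carboxylase, whose product restrains fatty acid oxidation, read 7.55, 8.45, 6.83 and 6.57 in diabetes against 9.24, 8.45, 8.81 and 9.27. It was chosen for mention after its values were seen, to complete the 8, and here replicate 2 reached the lowest non-diabetic array. Outside that count, which takes 1 probe set per gene, probe sets of Acly, ATP citrate lyase, had B above 0 (-1.55 ± 0.33 and -1.86 ± 0.40, SE). Elovl6, which lengthens palmitate to stearate, read 8.06, 9.27, 7.11 and 7.86 against 10.66, 9.31, 9.77 and 10.19. This difference, -1.91 ± 0.45, was larger than that of Acaca but more variable and did not pass (B = -0.38). The plot of single arrays shows these levels for 10 genes. With 1 array left out, the number of lipid synthesis genes that passed the threshold, 8 with all arrays, was 1, 11, 1 and 2 without diabetic replicates 1 to 4, and 1, 8, 5 and 1 without non-diabetic replicates 5 to 8. Fasn passed in 8 of 8 such fits, and Acaca in 4.

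**Figure D2:**
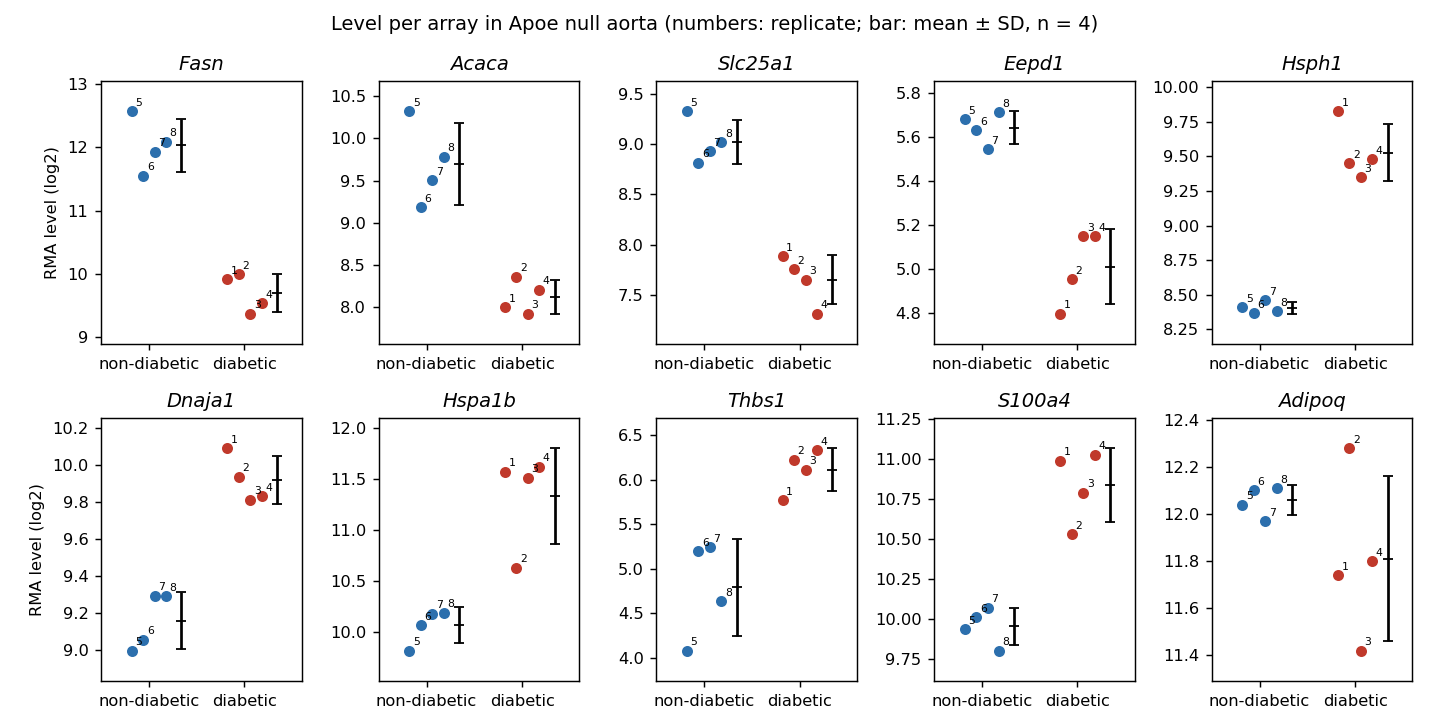
Level of 10 genes on each of the 8 Apoe null arrays (vertical axes, log2 RMA level, a separate scale per gene); numbers are replicates, and bars give the mean ± SD of 4 arrays. Fasn, Acaca, Slc25a1 and Eepd1 were lower and Hsph1, Dnaja1, Hspa1b, Thbs1 and S100a4 higher in every diabetic array, whereas Adipoq overlapped between the groups.

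Tkt and Pygl, of sugar and glycogen use, fell as well. Tkt, transketolase of the pentose phosphate pathway, read 11.15, 11.43, 11.10 and 11.08 in diabetes against 12.22, 11.76, 11.89 and 12.02, and fell by 0.79 ± 0.16 (SE). Pygl, glycogen phosphorylase, read 8.47, 9.28, 8.05 and 8.42 against 10.52, 9.53, 9.89 and 10.21 and fell by 1.48 ± 0.31. Both separated the groups, with replicate 2 the highest diabetic array in each. Of the 15 measured genes of glucose uptake and glycolysis, 12 had negative differences (median -0.41), 9 of them at an unadjusted p under 0.05, and 0 passed B above 0. Pfkl, the liver-type phosphofructokinase, differed by -1.29 ± 0.33 and Pkm, pyruvate kinase, by -0.61 ± 0.17. Over all genes 5.94% were lower at that unadjusted p.

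Mitochondrial genes lay lower in 3 of the 4 diabetic arrays. All 17 measured genes of pyruvate entry and the citric acid cycle had negative differences (median -0.60), and 0 passed B above 0. Of these, 13 had an unadjusted p under 0.05 (5.94% of all genes were lower at that p). Without overlap were 3 (3.1% of all genes were lower without overlap). Pcx, pyruvate carboxylase, read 8.08, 9.13, 7.82 and 8.17 in diabetes against 9.24, 9.30, 9.16 and 9.40 (-0.98 ± 0.27, SE; B = -1.45). The groups were separate, but replicate 2 lay just under the lowest non-diabetic array and well above the other diabetic arrays. Pdhb, a subunit of pyruvate dehydrogenase, gave -0.92 ± 0.25, and Mpc1, the pyruvate carrier, -0.87 ± 0.25.

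The same held for the respiratory chain and for fatty acid oxidation. Negative differences were found in 29 of 30 genes of complex I (median -0.35), 14 of 14 of complexes II and III (-0.50), 9 of 9 of complex IV (-0.27) and 14 of 14 of ATP synthase (-0.26), and 0 of these passed B above 0. In fatty acid oxidation 20 of 21 genes were negative (median -0.63), 15 at an unadjusted p under 0.05, against 5.94% of all genes. Cpt2, which delivers fatty acids into mitochondria, read 8.88, 9.80, 8.72 and 8.83 in diabetes against 10.36, 9.69, 9.77 and 10.10 (-0.92 ± 0.30). Replicate 2 lay among the non-diabetic arrays in this gene and in Hadha, of the trifunctional oxidation enzyme, where it read 10.18 against 9.54, 9.40 and 9.10 in the other diabetic arrays and 10.12 to 10.69 without diabetes. Pdk4, a kinase that shuts off pyruvate dehydrogenase and is a target of fasting signals, read 10.43, 11.27, 9.80 and 10.86 against 11.29, 10.53, 10.90 and 11.41, with overlapping groups (-0.44 ± 0.28).

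Genes of fat cells had negative differences too. Of 16 measured genes of fat storage, lipolysis and fat hormones, 16 had negative differences (median -0.66), and 0 passed B above 0. At an unadjusted p under 0.05, 11 were lower, against 5.94% of all genes. Gpd1, which makes the glycerol backbone of triglyceride, read 9.50, 10.71, 9.33 and 9.54 in diabetes against 11.45, 10.81, 11.01 and 11.25 (-1.36 ± 0.31). Slc2a4, the insulin-responsive glucose transporter of fat and muscle, read 7.81, 8.65, 7.80 and 7.93 against 9.27, 8.61, 8.60 and 9.25 (-0.89 ± 0.24). In both, replicate 2 stood near the non-diabetic arrays while the other 3 lay well below.

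Cidec, a coat protein of the fat droplet, gave -0.89 ± 0.26 (SE) and Lipe, hormone-sensitive lipase, -1.04 ± 0.31, though a second, dim Lipe probe set gave 0.08. Of the brown fat genes 11 of 14 were negative (median -0.70). Ucp1 read 10.56, 11.97, 10.48 and 10.76 against 12.18, 11.83, 11.93 and 12.08, so replicate 2 again lay with the non-diabetic arrays (-1.06 ± 0.33). Of 6 defining markers of white fat 4 were measured, and all 4 were lower in the mean (median -0.47). Adipoq differed by only -0.25 ± 0.18 with overlapping groups, Retn (resistin) by -0.30 ± 0.23 and Lep (leptin) by -0.64 ± 0.33. None of the 4 passed B above 0, and Lep was dim, between 3.23 and 4.37.

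**Figure D3:**
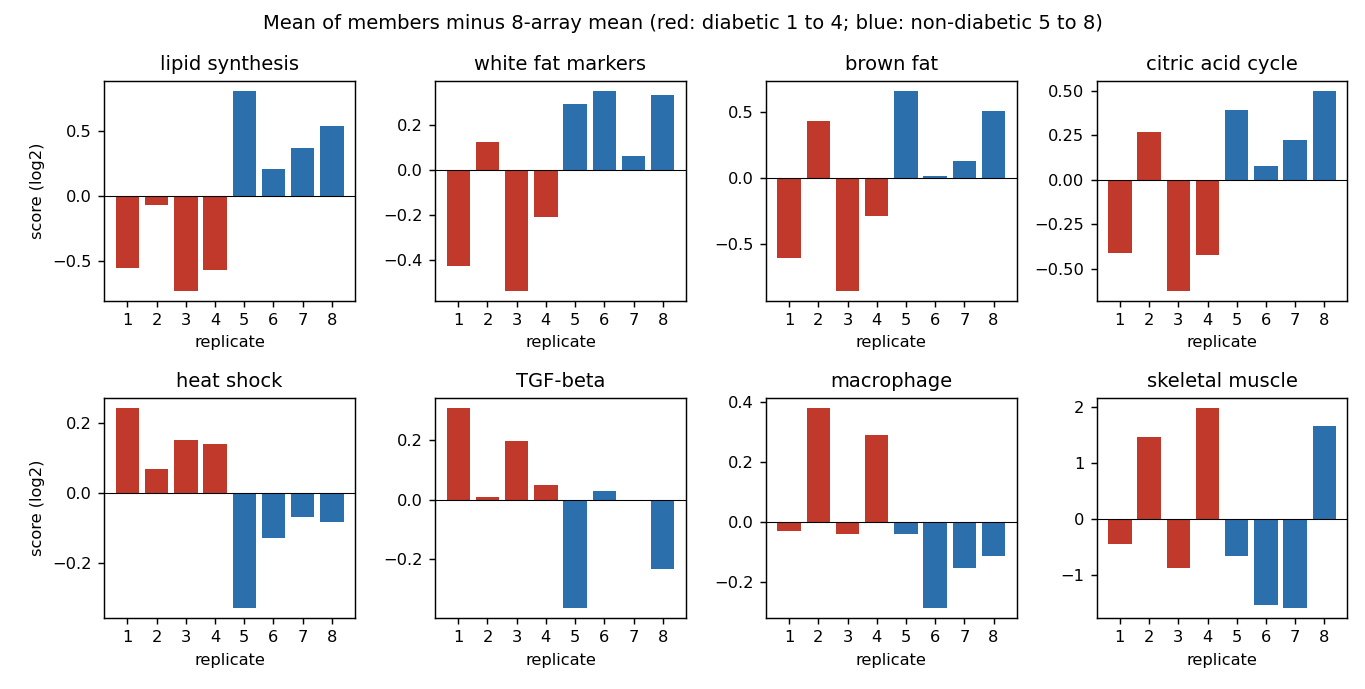
Score of 8 gene lists on each Apoe null array (vertical axes, log2: the mean over list members of the level minus its 8-array mean; horizontal axes, replicate). Diabetic replicate 2 reads 0.27 in the citric acid cycle score and 0.13 in the white fat score, whereas the other diabetic arrays lie between -0.62 and -0.41 and between -0.53 and -0.21.

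The amount of fat on the vessel and the level of these genes within fat cells cannot be told apart. The white fat marker score was -0.42, 0.13, -0.53 and -0.21 in the diabetic arrays and 0.29, 0.35, 0.06 and 0.33 in the non-diabetic arrays, so the groups overlapped through replicate 2. The lipid synthesis score was -0.56, -0.07, -0.73 and -0.57 against 0.81, 0.21, 0.37 and 0.54, and did not overlap. In replicate 2 the fat marker score lay above that of non-diabetic replicate 7, while Fasn read 9.99 there and 11.93 in replicate 7. The part of fat content in the lower lipid and mitochondrial genes was not tested.

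Cytosolic heat shock genes were higher in the diabetic aorta. Of 26 measured chaperone and heat shock genes, 4 rose and 0 fell, against 0.148% and 0.0879% of all genes. Positive differences were found in 21 (list median 0.24), against 49.8% of all genes. Of the 26, 12 were higher at an unadjusted p under 0.05, against 7.27% of all genes, and 9 were higher in every diabetic array than in any non-diabetic array, a pattern found upward in 4.52% of all genes. Hsph1, the large HSP110 chaperone, read 9.83, 9.45, 9.35 and 9.48 in diabetes against 8.41, 8.37, 8.46 and 8.38. The non-diabetic arrays were nearly equal, and the difference was 1.12 ± 0.19 (SE; limma adjusted p = 0.222, B = 2.06). Dnaja1, a J-domain partner of HSP70, read 10.09, 9.94, 9.81 and 9.83 against 9.00, 9.06, 9.29 and 9.29 (0.76 ± 0.12), and its 3 probe sets all passed.

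Hspa1b, an inducible HSP70, read 11.57, 10.63, 11.51 and 11.62 in diabetes against 9.82, 10.07, 10.18 and 10.19 (1.27 ± 0.24, SE). Replicate 2 showed the smallest increase but still lay above all non-diabetic arrays. Its neighbour Hspa1a read 10.03, 8.97, 10.27 and 9.95 against 7.76, 8.78, 8.85 and 8.52 (1.32 ± 0.32; B = -0.53). Both genes encode almost the same protein, and 247 of the 250 promoter bases are identical between them, so probes may read both. They are not independent, although the gene and promoter counts of the heat shock list include each of them. Chordc1, a co-chaperone of HSP90, rose by 0.48 ± 0.08, although its promoter window holds no heat shock pair. Without 1 array the number of heat shock genes past the threshold was 0, 5, 3 and 3 for diabetic replicates 1 to 4 and 0, 4, 4 and 3 for non-diabetic replicates 5 to 8, and the differences of Hsph1 stayed between 1.02 and 1.18.

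Chaperones of the endoplasmic reticulum had smaller positive differences. Of 25 measured genes of these chaperones and the unfolded protein response, 22 had positive differences (median 0.15), against 49.8% of all genes. Of the 25, 7 were higher without overlap, against 4.52% of all genes, and 0 passed B above 0. At an unadjusted p under 0.05, 8 were higher and 1 lower, against 7.27% and 5.94% of all genes. The lowest difference in the list was -0.62. Hspa5 (BiP, the main chaperone of this compartment) read 11.56, 11.38, 11.29 and 11.29 in diabetes against 10.48 to 11.06 (0.55 ± 0.14, SE), with 2 of its 3 probe sets positive. Manf, a secreted protein induced by stress in this compartment, differed by 0.64 ± 0.16, and Creld2 and Dnajc3, further members of the response, by 0.52 ± 0.15 and 0.34 ± 0.09. Proteasome subunits showed no such shift, with 18 of 31 positive and a median of 0.02.

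**Figure D4:**
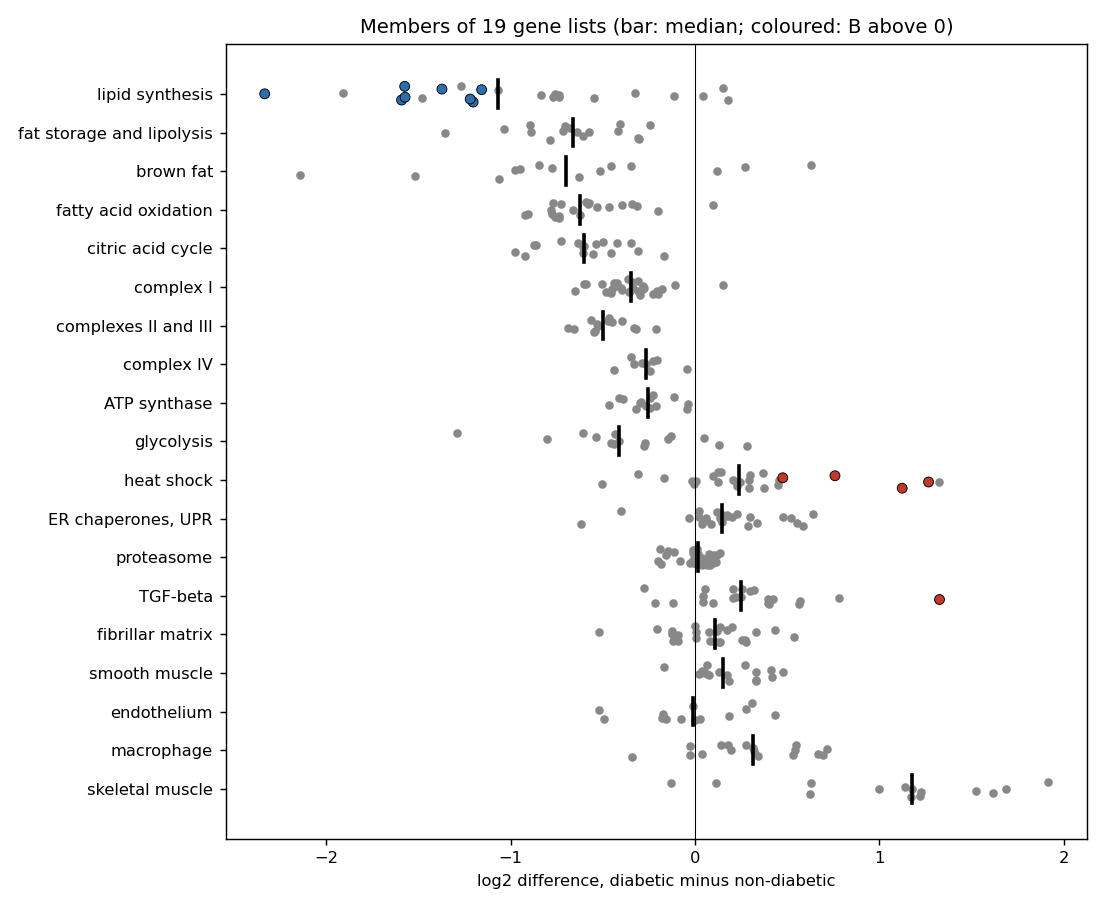
Differences of the measured members of 19 gene lists (horizontal axis, log2, diabetic minus non-diabetic; 1 point per gene, black bars for the median). Coloured points have B above 0: 8 lower genes of lipid synthesis, 4 higher heat shock genes and Thbs1 in the TGF-beta list, while mitochondrial lists lie left of 0 without a coloured point.

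In the TGF-beta list, which reflects the study's known interest, Thbs1 was the gene that rose. Thbs1, thrombospondin-1, a matrix glycoprotein that activates latent TGF-beta, read 5.77, 6.23, 6.11 and 6.33 in diabetes against 4.08, 5.20, 5.24 and 4.63. The groups were separate, with the lowest value in replicate 5 (1.32 ± 0.24, SE; limma adjusted p = 0.222, B = 1.51), and the second probe set of the gene was also higher. It passed in 4 of the 8 fits that left out an array, with differences from 1.09 to 1.47. Of the 22 measured members 19 were positive (median 0.25), 10 of them at an unadjusted p under 0.05, against 7.27% of all genes. At that p 1 member was lower, against 5.94% of all genes.

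Tgfbr1, the type I receptor, read 10.16, 9.52, 9.72 and 9.84 in diabetes against 8.88, 9.39, 9.52 and 9.18 (0.57 ± 0.14, SE; B = -0.85). Among the ligands Tgfb2 read 8.79, 8.16, 9.07 and 8.79 against 7.99, 8.24, 8.26 and 8.06, so that replicate 2 lay inside the non-diabetic range (0.56 ± 0.18). Tgfb1 differed by 0.20 ± 0.15, with its second, dim probe set at -0.19, and Tgfb3 by 0.10 ± 0.18. Smad3, which carries the receptor signal to the nucleus, gave 0.42 ± 0.11, and Skil, a target and repressor of that signal, 0.40 ± 0.11, both without overlap and neither past the threshold.

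No gene of the fibrillar matrix list passed, taking 1 probe set per gene. Outside that count, 1 probe set of Fn1, fibronectin, had B above 0 (0.76 ± 0.14, SE; limma adjusted p = 0.222, B = 1.43). Of 25 genes of fibrillar collagen, elastic fibres and their crosslinking, 17 were positive (median 0.11) and 0 had B above 0. Lox, which crosslinks collagen and elastin, gave 0.54 ± 0.15 and Col1a1, a chain of type I collagen, -0.52 ± 0.26. Mmp3, stromelysin-1, which degrades matrix, read 9.18, 8.87, 8.57 and 9.02 against 8.08, 7.78, 7.78 and 8.07 (0.98 ± 0.26; B = -1.26), separate but short of the threshold.

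Among RAGE ligands S100a4 rose. S100a4, a calcium-binding protein of motile cells and a reported ligand of RAGE, read 10.99, 10.53, 10.79 and 11.03 in diabetes against 9.94, 10.01, 10.07 and 9.80. All diabetic arrays lay above all non-diabetic arrays (0.88 ± 0.14, SE; limma adjusted p = 0.222, B = 2.35), and the gene passed in 7 of the 8 fits that left out an array, failing without replicate 5. S100a6, its neighbour in the family, differed by 0.51 ± 0.12 without overlap, and S100b, a ligand found in fat and Schwann cells, by -0.85 ± 0.29. Ager itself read 4.36, 4.54, 4.17 and 4.62 against 4.69, 4.59, 4.68 and 4.45 (-0.18 ± 0.16), with overlapping groups. The same probe set read 4.90 to 5.36 in Apoe/RAGE null replicates 11 to 15, above these 8 arrays, and 4.63 and 4.48 in replicates 9 and 10. It therefore does not establish the level of intact Ager transcript. Glo1, which with glutathione removes methylglyoxal, a precursor of glycation, read 8.58, 8.28, 8.47 and 8.74 against 8.63, 9.02, 9.38 and 9.31 (-0.57 ± 0.15; B = -1.12).

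The other genes past the threshold belong to no single list. Eepd1, a nuclease-domain protein with a role in DNA repair and cholesterol efflux, read 4.79, 4.95, 5.15 and 5.15 in diabetes against 5.68, 5.63, 5.54 and 5.71, a fall of 0.63 ± 0.10 (SE; limma adjusted p = 0.205) that passed in 8 of the 8 fits with an array left out. Slc1a5, a glutamine transporter, fell by 0.59 ± 0.13 and Sik2, a salt-inducible kinase abundant in fat, by 0.53 ± 0.12. Erdr1, whose gene lies where the sex chromosomes share sequence, fell by 1.43 ± 0.30.

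Higher were Tspan6, a tetraspanin (0.70 ± 0.13, SE), Cyp26b1, which clears retinoic acid (0.70 ± 0.13), Ctps, which makes CTP for nucleic acids and phospholipids (0.73 ± 0.15), Kpna2, a nuclear import receptor (0.53 ± 0.11), and Selenoi, of phosphatidylethanolamine synthesis (0.40 ± 0.08). Clock, a core factor of the circadian clock, rose by 0.59 ± 0.12, while the other 15 genes of that list did not pass and the list's median was -0.02. Slc5a3, the inositol transporter that cells induce under high osmolarity, read 8.55, 8.30, 8.04 and 8.45 in diabetes against 7.31, 7.58, 7.64 and 7.62 (0.80 ± 0.17). It was chosen for mention after its values were seen, and its groups were well apart.

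The cells of the vessel wall gave no called gene in their marker lists. Of 18 smooth muscle contractile genes 17 were positive with a median of 0.15. Acta2 differed by 0.05 ± 0.07 (SE), and its other, less bright probe sets by 0.59 ± 0.19 and 0.09 ± 0.27. Endothelial genes were balanced (6 of 13 positive, median -0.01). In the list of vascular inflammation 11 of 15 were positive (median 0.19). Selp, P-selectin, which tethers leukocytes, read 6.43, 7.28, 7.22 and 7.30 in diabetes against 6.18, 6.47, 6.15 and 6.00 (0.86 ± 0.22), so that replicate 1 alone stayed within the non-diabetic range. Vcam1, an adhesion molecule for monocytes, read 7.89, 8.21, 8.13 and 8.20 against values up to 7.63, without overlap (0.74 ± 0.31).

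Of 17 macrophage genes 14 were positive (median 0.32), and Cd68, a lysosomal protein of macrophages, read 5.85, 6.51, 5.74 and 6.34 in diabetes against 5.61, 5.29, 5.29 and 5.56 (0.67 ± 0.26, SE), close but not overlapping. Of 4 preset macrophage markers only Cd68 had an unadjusted p under 0.05, against 13.2% of all genes. Adgre1 (0.04), Csf1r (0.14) and C1qa (0.18) overlapped between the groups, and Cd163 of the macrophage list differed by -0.34. Skeletal muscle genes had the highest median of the 41 lists, 1.17, with 13 of 14 positive and wide scatter, and with 1 array left out it ranged from 0.61 (without diabetic replicate 4) to 1.95 (without non-diabetic replicate 8). Their score was -0.45, 1.47, -0.87 and 1.98 in the diabetic arrays and -0.67, -1.53, -1.59 and 1.66 in the non-diabetic arrays. It was high in replicates 2, 4 and 8, of both groups, and its part in the results was not tested. Zbtb16, a glucocorticoid-induced gene, read 10.21, 10.06, 9.17 and 9.82 against 10.44, 10.45, 10.41 and 10.43 (-0.62 ± 0.22), lower by different amounts in the 4 diabetic arrays.

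In mice that also lacked RAGE the diabetes effect was measured in 7 other arrays, so the 2 estimates share no array. Diabetic replicates 9 and 10 of that group read unlike the other arrays of their genotype in Decr2, a gene picked with its values known. In Decr2, on the same chromosome as Ager, they read 5.19 and 5.10, just below the 8 Apoe null arrays (5.32 to 6.01). Diabetic replicates 11 and 12 read 7.40 and 7.56 and the 3 non-diabetic arrays 6.84 to 6.99. Whether replicates 9 and 10 are mislabelled was not tested. Shares and medians are therefore given without them too. Values of single genes use all 7 arrays unless stated, and the interaction test includes replicates 9 and 10. Of the 16 genes that fell in Apoe null aorta 13 were also negative with RAGE deleted (81.2%; 12, or 75%, without replicates 9 and 10), against 54.5% with the same sign over all genes (44.1% without them). Their median was -1.28 in Apoe null and -0.53 in Apoe/RAGE null aorta (-0.24 without replicates 9 and 10).

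**Figure D5:**
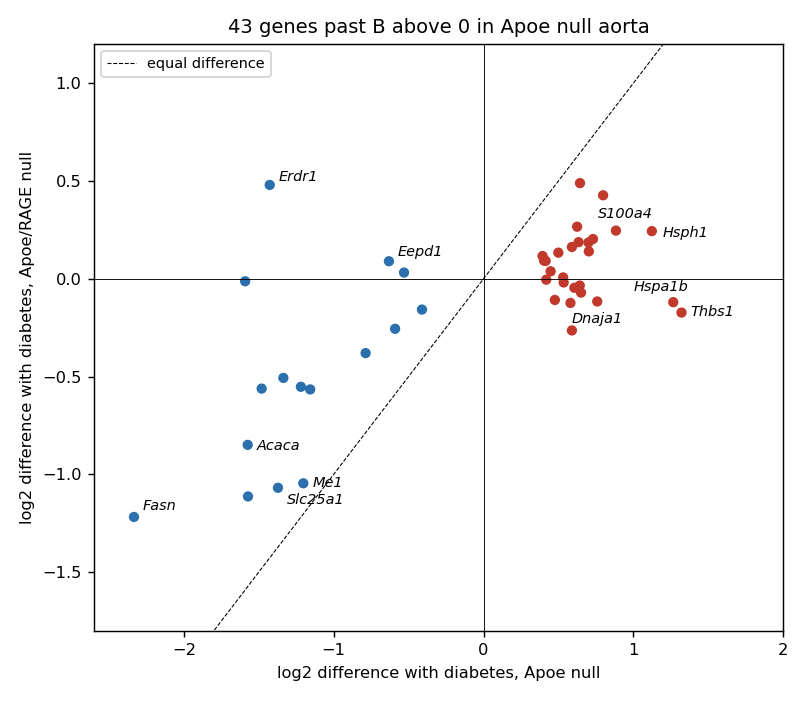
The 43 genes past B above 0, by their diabetes difference in Apoe null (horizontal axis, log2, 4 against 4 arrays) and in Apoe/RAGE null aorta (vertical axis, log2, 4 against 3 arrays as labelled). Lower genes such as Fasn (-2.33 and -1.22) lie mostly below 0 on both axes, while higher genes such as Thbs1 (1.32 and -0.17) scatter around 0 on the vertical axis.

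Fasn differed by -1.22, Slc25a1 by -1.07 and Me1 by -1.05 with RAGE deleted, against -2.33, -1.37 and -1.20 with RAGE present. Without replicates 9 and 10 Fasn gave -1.01 and Me1 -0.74 with RAGE deleted. Of the 27 genes that rose, 16 were positive with RAGE deleted (59.3%, with and without replicates 9 and 10), with a median of 0.62 in Apoe null and 0.09 in Apoe/RAGE null aorta (0.0067 without replicates 9 and 10). Thbs1 gave -0.17, Hspa1b -0.12, Dnaja1 -0.12 and S100a4 0.25 there. Without replicates 9 and 10 Hspa1b gave -0.38 and Dnaja1 0.04. Because the 43 genes were chosen for a large difference in Apoe null aorta, a smaller median in other arrays is built into the choice. The interaction of diabetes and genotype, which is the test of the difference, is reported here only with replicates 9 and 10 included. By limma it passed an adjusted p under 0.05 in 0 of 18193 genes (lowest adjusted p = 0.675). Its unadjusted p was under 0.05 in 24 of the 27 higher and 5 of the 16 lower genes, against 8.57% of all genes. The choice of the 43 genes raises these counts too.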

How the data were processed

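RNA of 15 aortas was measured on Affymetrix mouse arrays, 1 per mouse, and mice are the replicates. The values used are those deposited: log2 signal levels from RMA run by the authors, as the submitters' processing notes state without a version. Per the series design text, arrays of a genotype and disease state were normalized with their controls, and whether all 15 went through 1 run is not stated. Precision is set by the number of arrays, since they have no sequencing depth.

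The table held 45101 probe sets, of which 64 controls were left out. Of the 45037 tested, 34945 carried 1 gene, 932 several and 9160 none named here, by the array's annotation, and 34741 matched a RefSeq gene table (GRCm38.p6) by Entrez ID. To give 1 value for each of 18193 genes, the brightest probe set (mean of all 15 arrays) was taken. The model was fitted with limma 3.58.1 (R 4.3.3) to 4 group means on the 15 arrays together, and p-values were adjusted by Benjamini-Hochberg across every probe set tested. The call rule was B above 0.

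The comparison and the 41 gene lists (644 genes written, 594 measured) were chosen with earlier results of these data known. Named genes were, on each side, the 15 with the smallest p and the 6 with the largest change among those without overlap and with p under 0.01, the 4 members of each list with the smallest p, Ager, Apoe, Tgfb1, Tgfb2, Tgfb3 and Thbs1, and cell type markers, less provisional symbols. Acacb, Slc5a3, Decr2 and the probe sets of Fn1 and Acly fall outside that rule and were added with their values known. Fn1, Acly, Adgre1, Csf1r, C1qa and Cd163 are left out of the counts over named genes and their other probe sets given below. Not every eligible gene is named in the text, and 3 further genes, first written in the TGF-beta list, are not reported here.

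In 5 draws of simulated data, each with 200 changed probe sets, the fit was checked against known answers. B above 0 found 49.8%, 92.2% and 99.4% of the changes of size 0.5, 1 and 2, and 13.1% of its calls were false. An adjusted p under 0.05 found 42.6%, 91.3% and 99.4%, with 6.93% false. The simulated noise was normal and drawn independently for each probe set, without variation shared across an array. These rates therefore check the fit and do not give the share of false or missed calls in the real data. Alternatives used only the 8 arrays, dropped replicates 9 and 10, applied array weights, median centring, quantile normalization or a trended robust variance, left out dim probe sets, took 1 probe set per gene or a gene's other probe sets, or left out each of the 8 arrays. Plots were made in Python 3.11.15 with matplotlib 3.10.9.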

Additional observations from a re-analysis of the deposited data

Results flagged for a closer look

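In 14 of the 228 groups of 4 values examined, 1 array lay far from the other 3 by Dixon's test at the 95% level, which chance alone gives in about 1 of 20 groups. Of these, 8 were in diabetic replicate 2. Genes of fat storage and fatty acid use were high there, with Cidec at 9.54 (the other 3 from 8.58 to 8.60), Gpd1 at 10.71 (9.33 to 9.54), Cpt2 at 9.80 (8.72 to 8.88) and Slc2a4 at 8.65 (7.80 to 7.93). Cpn2, a subunit of plasma carboxypeptidase N, was high at 4.97 against 3.59 to 3.67. Slc1a5 was also high there, at 8.25 against 7.89 to 7.90. In the same array Hspa1b was low, at 10.63 against 11.51 to 11.62. The B cell marker score was high there too, at 1.29 against -0.59 to -0.41. In the 7 genes replicate 2 lay nearer to the non-diabetic arrays than the other 3 diabetic arrays did.

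In diabetic replicate 1, Selp was low, at 6.43 against 7.22 to 7.30, and the circadian score was high, at 0.23 against -0.10 to -0.06. In non-diabetic replicate 8 the nerve score was high, at 0.54 against -0.20 to -0.10. In non-diabetic replicate 5 the proliferation score was high, at 0.18 against -0.16 to -0.12, Ctps was low, at 7.72 against 8.10 to 8.14, and Cyp26b1 was low, at 5.44 against 5.55 to 5.56.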

How the results depend on the processing

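No paired analysis was possible because each replicate number, from 1 to 15, belongs to 1 mouse and no groups share one. The 76 probe sets with B above 0 became 132 with only the 8 Apoe null arrays in the fit, 128 without Apoe/RAGE null replicates 9 and 10, 159 with array weights and 43 with 1 probe set per gene. They ranged from 7 (without non-diabetic replicate 5 or 8) to 198 (without diabetic replicate 2), and were 60 to 72 under the other alternatives. The 0 probe sets at an adjusted p under 0.05 became 5 with only the 8 arrays, 7 with array weights, and 1 each with quantile normalization, dim probe sets left out and 1 probe set per gene, and ranged from 0 to 1 with an array left out (1 without non-diabetic replicate 5). Among named genes, 951 values under alternatives kept their direction and side of the threshold, 146 lost the call, 34 gained one and 4 turned their direction. Those 4 were Lipe (0.081) and Tgfb1 (-0.19) in the median of their other probe sets, and Tgfb3, which ranged from -0.068 (without diabetic replicate 3) to 0.20 with an array left out and was -0.02 without non-diabetic replicate 8. Of the 43 genes in the text with another probe set, 9 had one of the opposite sign, from -0.19 to 0.081. Of the medians of the 41 lists under alternatives, 484 moved by less than the spread between replicates and 8 by more. With dim probe sets left out that of vascular inflammation became 0.39, of neutrophil genes 0.44 and of airway genes 0.58. With an array left out, that of matrix proteases ranged from 0.096 (without diabetic replicate 3) to 0.25 (without diabetic replicate 2), of neutrophil genes from -0.14 (without non-diabetic replicate 6) to 0.18, and of proliferation genes from 0.030 to 0.22 (without non-diabetic replicate 5). The causes were not tested. In the simulated data, which lacked variation shared across an array, changes of 0.5 were recovered in 49.8% of cases. That rate does not give the share missed in the real data. With 4 mice per group, a gene that did not pass may still differ.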

Other observations

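Several genes outside the groups above had large differences without overlap, though B stayed below 0. Orm1, an acute-phase plasma protein, read 6.51, 7.70, 6.05 and 6.33 in diabetes against 9.10, 7.90, 8.00 and 8.28 (-1.67 ± 0.43, SE). Cpn2, a subunit of carboxypeptidase N, which trims peptides in plasma, read 3.59, 4.97, 3.67 and 3.63 against 5.73, 5.45, 5.82 and 5.79 (-1.73 ± 0.47). In both the diabetic replicate 2 lay closest to the non-diabetic arrays. Nts, the peptide neurotensin, differed by 1.22 ± 0.40, Ifit1, an interferon-stimulated gene, by 0.81 ± 0.24, and Nr4a3, an early response nuclear receptor, by 0.94 ± 0.37. The other, dimmer probe sets of Nr4a3 gave -0.11 and 0.14.

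Among the other lists, immediate early genes were positive in 17 of 20 (median 0.33) and interferon-stimulated genes in 10 of 11 (median 0.15), while glucocorticoid-induced genes were negative in 7 of 10 (median -0.23). Cholesterol synthesis and uptake (median -0.04) and insulin and IGF signalling (0.03) lay near 0. The immediate early score was high in 2 of the 4 diabetic arrays, replicates 3 and 4 (0.53 and 0.51), and lay at -0.10 and -0.24 in replicates 1 and 2, against -0.36 to 0.03 without diabetes. No gene of these lists had B above 0. The other 13 lists (ketone bodies, glycation and polyol pathways, matrix proteases, fibroblast, T and NK cell, B cell, neutrophil, red cell, heart, nerve, airway, proliferation and antioxidant genes) had medians from -0.14 for red cell genes to 0.18 for airway genes, with no gene past B above 0. Single arrays set some of these medians. Leaving out non-diabetic replicate 8 turned the median of heart genes from 0.04 to 1.29, and leaving out replicate 5 turned it to -0.48. B cell genes went from 0.09 to -0.35 when diabetic replicate 2 was dropped, and red cell genes to 0.21 when non-diabetic replicate 5 was.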
